A study of Mus musculus with 12 samples.

Results

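Wild-type NIH3T3 cells, a fibroblast line from mouse embryos, were compared after hypoxia and in normoxia by RNA sequencing. The comparison took every column labelled wild type, that is 6 of the 12 samples of the series, and all of their genes. The hypoxia group was 3 samples of cells kept for 16 h in a chamber below 0.2% O2, and the normoxia group was 3 samples of the same line kept in air with added CO2. Neither group carried a genetic change or a drug. The other 6 samples came from NIH3T3 cells with the dNVEGF deletion (CRISPR-edited clones that lack the coding sequence of N-VEGF, the N-terminal extension of the angiogenic factor VEGF), under the same pair of conditions. They entered the statistical model, where they helped to estimate the spread between samples, and their response to hypoxia is set against that of the wild type in the closing section, where it differed between the lines in 495 tested genes (3.36%), and without normoxia replicate 2 of the wild type in 6729 of 15145 (44.4%). The labels call the samples triplicates of 1 cell line and do not say whether they were separate cultures, so the p-values below measure the spread between these samples, which may be technical.

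Cells read oxygen through prolyl hydroxylases of the EGLN family, which use oxygen to mark the alpha subunits of the hypoxia-inducible factor (HIF) for destruction by the VHL ubiquitin ligase. When oxygen falls, the alpha subunit persists, pairs with ARNT and binds the core sequence ACGTG in promoters and enhancers. The best known targets supply glucose uptake, glycolysis, lactate export, angiogenic signals, collagen processing and mitophagy, together with the hydroxylases themselves, which form a feedback loop. Oxygen is also the electron acceptor of disulfide formation in the endoplasmic reticulum (ER) and of the respiratory chain, so severe hypoxia is known to touch the unfolded protein response, translation, growth control and the cell cycle.

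Levels are given as CPM, the count of a gene scaled to a library of fixed size after TMM scaling (trimmed mean of M-values), in the order of replicates 1, 2 and 3. Differences are log2 fold changes of hypoxia over normoxia ± standard error (SE) from edgeR's quasi-likelihood test over all tested genes, with Benjamini-Hochberg adjusted p-values. A gene is called raised or lowered at an adjusted p below 0.05. A gene said to rise or fall with no p beside it also passed that threshold. Where an alternative analysis ended a call or moved a log2 fold change by over 1.5 times, this stands beside the value, except for total-count scaling with normoxia replicate 2 left out as well, which is given in the closing section. Of the 54446 genes in the table, 14724 had enough counts to be tested, and 5372 of them (36.5%) were called, 2675 raised (18.2%) and 2697 lowered (18.3%). With a change of at least 2-fold as a further condition, 2312 genes (15.7%) were called, of which 1350 genes (9.17%) were raised and 962 (6.53%) lowered. These shares are the background against which each gene list below should be read.

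Each of the 6 libraries held between 30519052 and 43056690 counted reads. Normoxia replicate 2 stood apart from its group: its log2 CPM correlated with those of normoxia replicates 1 and 3 at r = 0.956 and 0.957 across genes, whereas the latter pair reached 0.996 and every hypoxia pair at least 0.994. On the second principal component of the 6 samples, which held 32.4% of the variance, it sat at -84.6 against 37.2 and 36.2 for its replicates and 3.46 to 4.20 for the hypoxia samples. It lay closer to the 3 dNVEGF normoxia samples, at r = 0.976, 0.984 and 0.975, than to its own replicates, while normoxia replicates 1 and 3 correlated with those samples at 0.963 to 0.978. The dNVEGF normoxia replicate 2 was itself less like its own replicates (r = 0.986 with each) than they were like each other (0.996). The labels give no reason, and whether this library came from another culture or was exchanged with another sample was not tested. Every normoxia mean and every fold change with all samples includes it. List medians and the genes that this library decides are therefore also given without it. Without it, 15145 genes were tested and 8175 (54.0%) were called, 4107 raised (27.1%) and 4068 lowered (26.9%). Of the calls, 5209 were shared, which is 97% of those made with the library and 63.7% of those made without it, and none of the shared genes changed direction. Among the 6 libraries, mitochondrially encoded genes took 3.41%, 2.62% and 3.54% of counts in normoxia and 2.04%, 1.62% and 2.08% in hypoxia. The scaling between libraries mattered for small changes: the median log2 fold change of all genes was -0.07 with TMM scaling (-0.001 without normoxia replicate 2), and -0.30 when libraries were scaled by their total counts, which gave 6710 calls (45.6%), 1892 raised (12.8%) and 4818 lowered genes (32.7%).

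Fibroblast markers were abundant in all samples. Of 10 such markers, 9 were measured (Lum had too few counts), and their summed level ran from 17000 to 24150 CPM in normoxia and from 27040 to 29270 CPM in hypoxia. By gene, 2 of the 9 were raised and 3 lowered (median -0.19), and without normoxia replicate 2 there were 2 raised and 6 lowered (median -0.49). Few markers of other cell types were measured: 4 of 11 leukocyte, 3 of 8 endothelial, 3 of 8 epithelial, 2 of 8 adipocyte and 2 of 8 skeletal muscle markers had enough counts to be tested, and Tyrobp, Cd3e, Epcam, Lep, Cebpa, Cfd, Myod1 and Myf5 had no read in any wild-type sample. The summed leukocyte list ran from 24.1 to 37.9 CPM in normoxia and from 47.4 to 48.8 CPM in hypoxia, and the endothelial list from 3.39 to 5.29 and from 7.82 to 10.1 CPM. In hypoxia most of the leukocyte sum was Csf1r, the receptor for macrophage colony-stimulating factor, which read 0.845, 9.03 and 1.002 CPM in normoxia and 30.1, 29.6 and 28.8 CPM in hypoxia (log2 fold change 3.03 ± 0.73, adjusted p = 0.0072, call lost with DESeq2 or with the wild-type samples alone, and 4.99 ± 0.31, adjusted p = 3.4e-08 without normoxia replicate 2). Summed levels of the epithelial list were 3.55 to 3.95 CPM in normoxia and 8.72 to 10.5 CPM in hypoxia, those of adipocyte markers 9.61 to 13.5 and 5.45 to 6.27 CPM, and those of muscle markers 2.04 to 7.84 and 4.41 to 6.10 CPM. Their part in the results was not tested.

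Hypoxia raised the classical targets of HIF almost as a block, together with most genes of glycolysis, of the ER chaperones, of collagen processing and of the contractile list. Of the 58 lists with all 6 samples, the share of lowered genes was highest among mitotic genes (71.1%), followed by mitochondrially encoded messenger RNAs (54.5%), fatty acid synthesis and small leucine-rich proteoglycans (50% each) and interferon-stimulated genes (48.5%), against 18.3% of all tested genes. Several of these falls also involved normoxia replicate 2: without it the mitotic median moved from -1.40 to -0.71, in interferon-stimulated genes it lay below all hypoxia samples, and in the proteoglycans it lay between its replicates and hypoxia, nearer to hypoxia. Genes for DNA replication, ribosome biogenesis, the proteasome and mitochondrial ribosomes also had medians that depended on that sample. The plot of list medians sets these side by side.

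**Figure D1:**
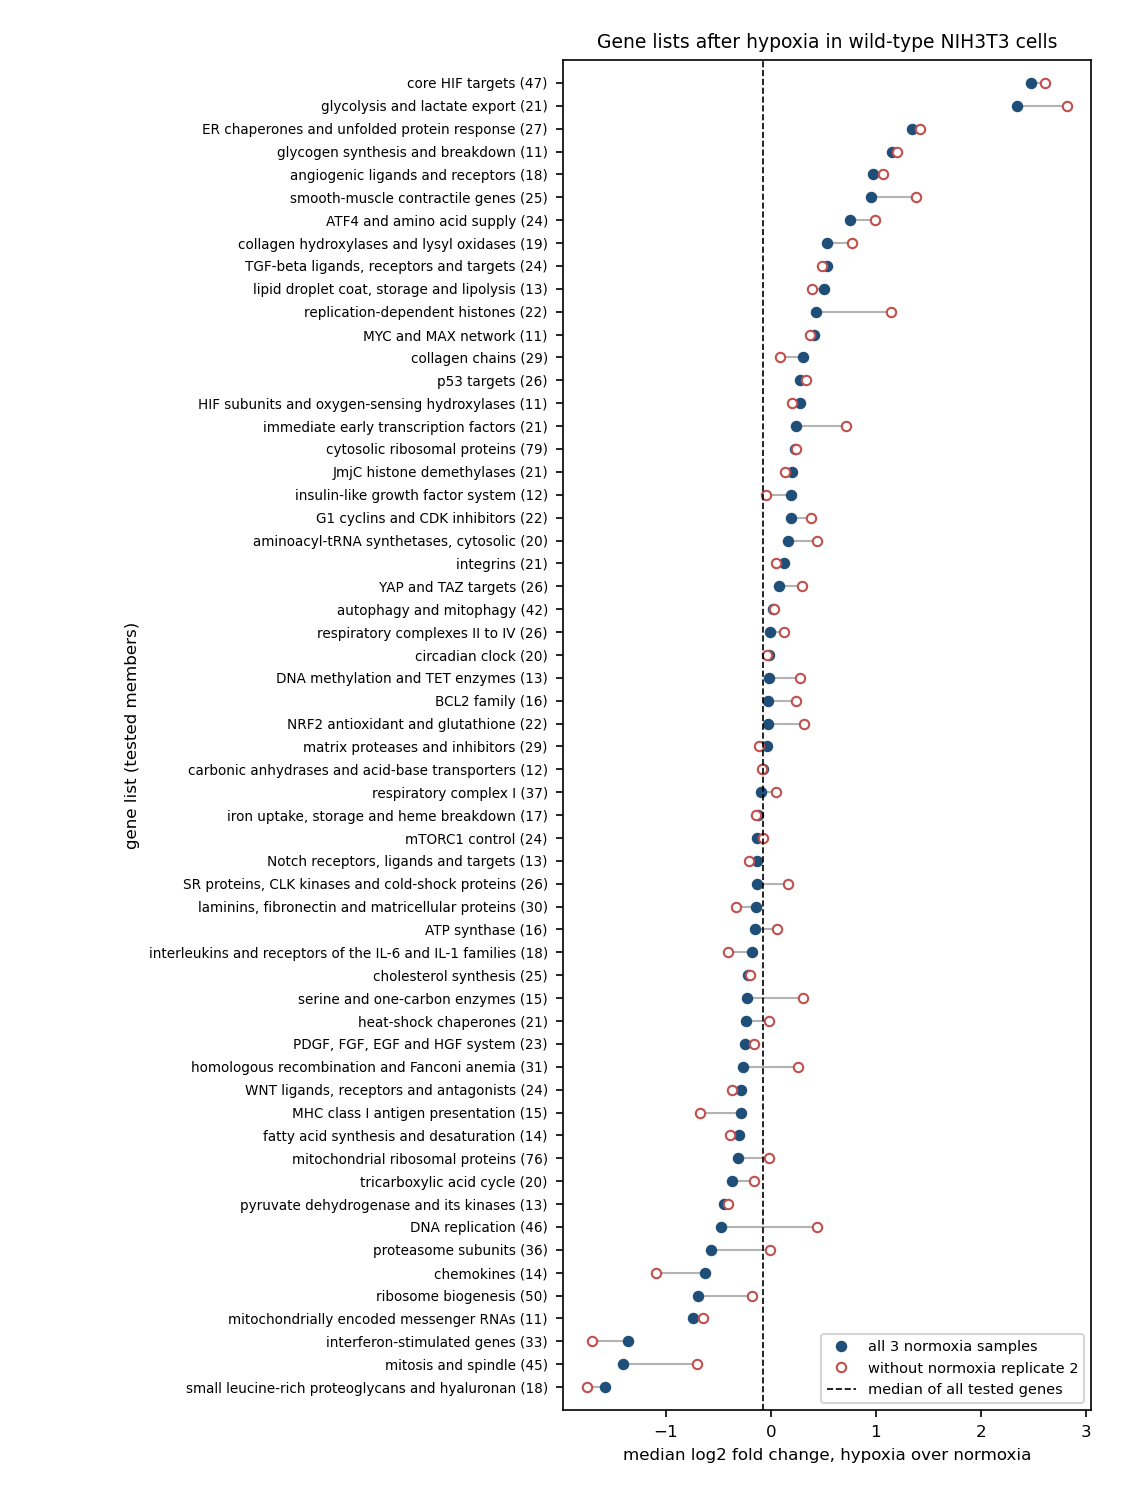
Median log2 fold change (hypoxia over normoxia) of the tested members of each of the 58 gene lists, with all 3 normoxia samples (filled) and without normoxia replicate 2 (open). The dashed line marks the median of all tested genes, -0.07. Core HIF targets (2.48), glycolysis (2.35) and ER chaperones (1.35) lie at the upper end, and small leucine-rich proteoglycans (-1.58), mitotic genes (-1.40) and interferon-stimulated genes (-1.36) at the lower end.

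In the list of HIF subunits and hydroxylases, 4 of 11 tested members (12 listed) were raised and 1 lowered (median 0.28), and without normoxia replicate 2 4 were raised and 3 lowered (median 0.21). Hif1a, the oxygen-labile subunit, read 256, 135 and 254 CPM in normoxia and 173, 138 and 172 CPM in hypoxia. Its groups overlapped, with normoxia replicate 2 the lowest of the 6 samples, and the log2 fold change of -0.42 ± 0.22, adjusted p = 0.16 became -0.66 ± 0.13, adjusted p = 0.00085 without that sample. Egln1, the main prolyl hydroxylase, read 57.95, 98.3 and 54.3 CPM in normoxia and 865, 851 and 877 CPM in hypoxia, with no overlap and a log2 fold change of 3.62 ± 0.20, adjusted p = 2.7e-07. Egln3, a second hydroxylase of the feedback loop, was raised by 2.39 ± 0.28, adjusted p = 7.3e-05 on the log2 scale. Arnt2, a partner of the alpha subunits, was the member that fell most (-1.49 ± 0.20). Epas1, which encodes HIF-2 alpha, had too few counts to be tested.

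Among the core HIF targets, 40 of 47 tested members (49 listed) were raised and 1 lowered, with a median log2 fold change of 2.48 against -0.07 for all genes, and without normoxia replicate 2 41 were raised and 2 lowered (median 2.61). Ankrd37 read 1.76, 3.04 and 1.89 CPM in normoxia and 96.6, 93.6 and 95.7 CPM in hypoxia (5.42 ± 0.20, adjusted p = 1.1e-08). Bnip3, a receptor for mitophagy, read 13.7, 15.5 and 13.7 CPM in normoxia and 327, 290.1 and 322 CPM in hypoxia (4.45 ± 0.11, adjusted p = 1.7e-09). Car9, the carbonic anhydrase that hydrates CO2 at the cell surface, read 0.959, 0.186 and 0.983 CPM in normoxia and 31.1, 29.6 and 28.9 CPM in hypoxia (5.38 ± 0.39, adjusted p = 2.1e-06). In each of these genes the lowest hypoxia sample lay many times above the highest normoxia sample, and normoxia replicate 2 did not alter the direction. Ndrg1, a growth-arrest gene, read 328, 148 and 316 CPM in normoxia and 1976, 2074 and 1956 CPM in hypoxia (2.92 ± 0.29, adjusted p = 1.9e-05), with normoxia replicate 2 below its replicates. Selenbp1, a selenium-binding methanethiol oxidase, rose most of the list, from 2.67, 0.255 and 2.22 CPM in normoxia to 159, 171 and 149.7 CPM in hypoxia (6.53 ± 0.61, adjusted p = 1.3e-05). The exception was Rab20, a small GTPase of endosomes, which was lowered (4.88, 3.83 and 4.59 CPM in normoxia and 2.88, 2.50 and 2.88 CPM in hypoxia, log2 fold change -0.68 ± 0.14, adjusted p = 0.0035). Ndufa4l2, a subunit-like protein of the respiratory chain, stayed near 1 CPM or below in every sample and passed the test without normoxia replicate 2 (-0.88 ± 0.34, adjusted p = 0.043) but not with it (-0.397 ± 0.61, adjusted p = 0.64).

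Promoter sequence of these genes, taken from RefSeq (build GRCm38.p6), is shown for the first-listed HIF and glycolysis targets because ACGTG is the core of the HIF binding site. Each line gives the 250 bases before the annotated start of the gene, 5′ to 3′ on its own strand, with any ACGTG on either strand (ACGTG or CACGT, which overlap in CACGTG) in capitals. Ldha has entries for 2 starts, and both are shown.
Ankrd37 (chr8:45999851-46000100, minus strand): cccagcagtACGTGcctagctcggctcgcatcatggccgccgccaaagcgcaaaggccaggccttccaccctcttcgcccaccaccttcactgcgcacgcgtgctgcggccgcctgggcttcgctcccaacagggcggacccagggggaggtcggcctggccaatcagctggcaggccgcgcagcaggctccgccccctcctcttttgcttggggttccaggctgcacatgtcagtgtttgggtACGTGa
Bnip3 (chr7:138909507-138909756, minus strand): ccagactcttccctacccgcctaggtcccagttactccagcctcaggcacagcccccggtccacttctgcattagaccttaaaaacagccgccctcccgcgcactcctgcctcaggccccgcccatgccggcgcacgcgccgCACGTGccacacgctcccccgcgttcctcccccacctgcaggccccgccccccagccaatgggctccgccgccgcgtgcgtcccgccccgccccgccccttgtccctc
Car9 (chr4:43506776-43507025, plus strand): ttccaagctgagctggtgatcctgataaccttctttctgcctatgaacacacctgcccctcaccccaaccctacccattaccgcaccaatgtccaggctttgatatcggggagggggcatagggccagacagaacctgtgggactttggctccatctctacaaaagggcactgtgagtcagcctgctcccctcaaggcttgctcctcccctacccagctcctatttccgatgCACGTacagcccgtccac
Slc2a1 (chr4:119108495-119108744, plus strand): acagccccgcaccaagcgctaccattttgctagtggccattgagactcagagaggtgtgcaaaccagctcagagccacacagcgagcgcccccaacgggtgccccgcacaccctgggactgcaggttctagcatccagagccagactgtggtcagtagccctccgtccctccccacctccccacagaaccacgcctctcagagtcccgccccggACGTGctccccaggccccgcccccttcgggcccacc
Hk2 (chr6:82774455-82774704, minus strand): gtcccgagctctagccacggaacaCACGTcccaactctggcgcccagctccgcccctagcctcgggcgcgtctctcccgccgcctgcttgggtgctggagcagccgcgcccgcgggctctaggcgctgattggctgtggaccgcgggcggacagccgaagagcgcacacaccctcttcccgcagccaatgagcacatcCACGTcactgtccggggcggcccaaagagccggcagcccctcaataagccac
Ldha, start 1 (chr7:46845554-46845803, plus strand): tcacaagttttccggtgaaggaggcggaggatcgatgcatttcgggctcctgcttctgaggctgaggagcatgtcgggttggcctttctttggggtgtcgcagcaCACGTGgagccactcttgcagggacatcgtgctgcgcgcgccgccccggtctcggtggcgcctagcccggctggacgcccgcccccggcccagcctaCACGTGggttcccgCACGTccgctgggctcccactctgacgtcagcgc
Ldha, start 2 (chr7:46846832-46847081, plus strand): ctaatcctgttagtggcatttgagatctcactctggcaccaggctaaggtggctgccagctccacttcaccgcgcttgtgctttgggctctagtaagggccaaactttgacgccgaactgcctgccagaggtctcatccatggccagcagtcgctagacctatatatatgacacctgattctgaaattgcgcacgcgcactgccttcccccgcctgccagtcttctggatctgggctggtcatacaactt
Slc16a3 (chr11:120948817-120949066, plus strand): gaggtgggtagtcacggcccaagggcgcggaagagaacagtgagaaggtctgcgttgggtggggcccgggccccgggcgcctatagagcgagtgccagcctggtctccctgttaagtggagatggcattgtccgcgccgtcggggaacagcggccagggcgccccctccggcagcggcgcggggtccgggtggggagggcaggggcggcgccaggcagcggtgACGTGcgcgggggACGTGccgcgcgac
The motif occurred in at least 1 such window in 27 of the 41 core HIF targets with an entry (65.9%), in 11 of 21 glycolysis genes (52.4%) and in 10 of 24 genes of the ER list (41.7%). Over all 27025 gene symbols with an entry, whether or not they were tested here, it was 18.5%. The share among tested, raised or lowered genes was not computed. A match describes the letters in the window and does not show binding. The plot of single genes sets the levels of 16 genes from the main lists side by side in the 6 samples.

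**Figure D2:**
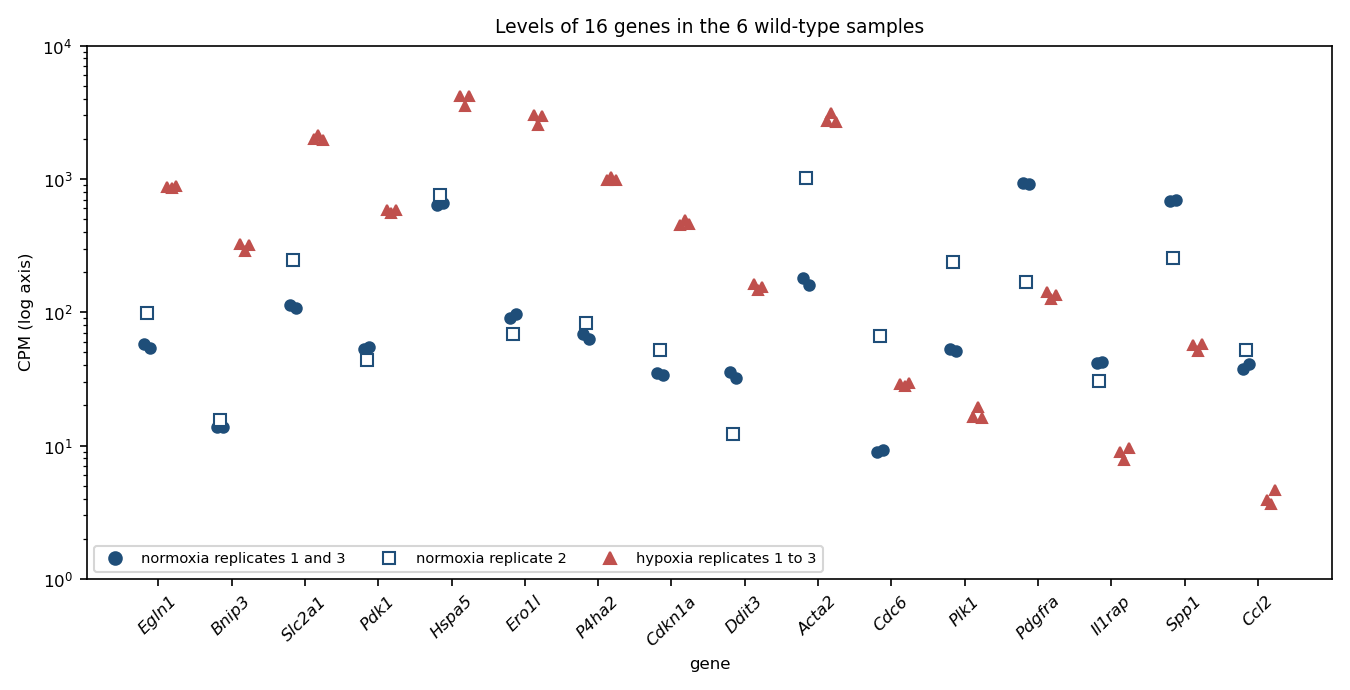
CPM (log axis) of 16 genes in the 6 wild-type samples, 3 in normoxia (circles, replicate 2 as an open square) and 3 in hypoxia (triangles). Egln1, Bnip3, Slc2a1, Pdk1, Hspa5, Ero1l, P4ha2, Cdkn1a and Ddit3 rose without overlap, Spp1, Ccl2 and Il1rap fell without overlap, and in Plk1, Cdc6, Acta2 and Pdgfra the open square lies apart from the other normoxia samples.

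Of angiogenic ligands and receptors, 11 of 18 tested members (22 listed) were raised and 4 lowered (median 0.98), and without normoxia replicate 2 11 were raised and 5 lowered. Vegfa, the main growth factor of endothelial cells, read 86.2, 39.4 and 82.6 CPM in normoxia and 277, 272 and 291 CPM in hypoxia (2.01 ± 0.23, adjusted p = 5.8e-05). Adm, which encodes the vasodilator adrenomedullin, read 40.5, 25.3 and 36.6 CPM in normoxia and 310.3, 306 and 314 CPM in hypoxia (3.19 ± 0.22, adjusted p = 1.5e-06). Edn1, the vasoconstrictor endothelin 1, rose from a low level (0.251, 0.673 and 0.424 CPM in normoxia and 8.59, 6.95 and 8.46 CPM in hypoxia, log2 fold change 4.15 ± 0.28, adjusted p = 1.3e-06). Angptl4, a lipoprotein lipase inhibitor, rose by the small amount of 0.79 ± 0.22, adjusted p = 0.014, call lost with normoxia replicate 1 or 3 left out. Angpt1, the activating ligand of the endothelial receptor TIE2, fell from 3.77, 1.30 and 4.06 CPM in normoxia to 0.649, 0.548 and 0.535 CPM in hypoxia (-2.39 ± 0.48, adjusted p = 0.0026).

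In the glycolysis list, 17 of 21 tested members (22 listed) were raised and the others gave no call (median 2.35), and without normoxia replicate 2 17 were raised and the others gave no call (median 2.82). Slc2a1, the glucose transporter GLUT1, read 112, 247 and 108 CPM in normoxia and 1984, 2127 and 1952 CPM in hypoxia (3.696 ± 0.28, adjusted p = 2.7e-06). Hk2, the hexokinase that traps glucose, read 43.5, 89.2 and 42.4 CPM in normoxia and 329.9, 314 and 331 CPM in hypoxia (2.48 ± 0.24, adjusted p = 1.8e-05). Ldha, which turns pyruvate into lactate, read 471, 1376 and 454 CPM in normoxia and 4170.4, 4631 and 4102 CPM in hypoxia (2.49 ± 0.36, adjusted p = 0.00031). In all of these the groups were apart, and normoxia replicate 2 was the highest normoxia sample, so the change grew to 4.202 ± 0.08, 2.93 ± 0.07 and 3.22 ± 0.10 without it. Slc16a3, the lactate exporter MCT4, was the first-listed member that gave no call, at 0.753, 1.07 and 0.886 CPM in normoxia and 0.779, 1.58 and 0.994 CPM in hypoxia.

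In glycogen metabolism 6 of 11 tested members (14 listed) were raised and 2 lowered (median 1.15), and without normoxia replicate 2 6 were raised and 2 lowered. Gys1, the muscle-type glycogen synthase, read 93.5, 92.5 and 89.02 CPM in normoxia and 1123, 1284 and 1129 CPM in hypoxia (3.68 ± 0.14, adjusted p = 1.7e-08). Gbe1, the branching enzyme, read 9.63, 16.7 and 10.9 CPM in normoxia and 335, 298 and 329 CPM in hypoxia (4.69 ± 0.20, adjusted p = 4e-08). Pygb, a glycogen phosphorylase, was lowered (-0.39 ± 0.10, -0.63 with total-count scaling, call lost with the wild-type samples alone or with hypoxia replicate 1 left out). Pyruvate dehydrogenase kinases inactivate the gate from glycolysis into the mitochondrion. Pdk1 read 53.2, 43.9 and 54.5 CPM in normoxia and 582, 549.9 and 579.7 CPM in hypoxia (3.496 ± 0.18, adjusted p = 1.7e-07) and Pdk3 36.1, 39.4 and 37.9 CPM in normoxia and 133, 126 and 133 CPM in hypoxia (1.79 ± 0.09, adjusted p = 2e-07). In the same list Pdp1, the phosphatase that reverses the kinases, fell (-0.88 ± 0.17), and so did Pdhx, a structural subunit of the complex (-1.03 ± 0.24, -0.61 ± 0.12 without normoxia replicate 2). As a whole, 2 of 13 tested members were raised and 6 lowered of this list (median -0.45), and without normoxia replicate 2 3 were raised and 8 lowered.

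The medians of the mitochondrial lists lay closer to 0 than that of glycolysis. For enzymes of the tricarboxylic acid cycle, 8 of 20 tested members were lowered and the others gave no call (median -0.37), though with total-count scaling 0 were raised and 18 lowered, and without normoxia replicate 2 1 was raised and 9 lowered (median -0.16). Ogdh, a subunit of the oxoglutarate dehydrogenase, read 275, 358 and 257 CPM in normoxia and 127, 146 and 128 CPM in hypoxia (-1.15 ± 0.14, adjusted p = 7.6e-05), and Cs, citrate synthase, fell by less (-0.72 ± 0.12). Idh3a, an isocitrate dehydrogenase subunit, read 57.1, 142 and 57.01 CPM in normoxia and 36.3, 32.4 and 32.9 CPM in hypoxia, where normoxia replicate 2 lay above its replicates (-1.33 ± 0.31, adjusted p = 0.0059 with it, -0.75 ± 0.13, adjusted p = 0.00036 without it). For nuclear subunits of the respiratory chain the counts depended on the scaling and on normoxia replicate 2. Without that sample 27.1% of all genes were raised and 26.9% lowered. In complex I these shares were 27.0% and 16.2%, and in complexes II to IV 30.8% and 19.2%. For complex I, 1 of 37 tested members was raised and 5 lowered (median -0.09), though with total-count scaling 1 was raised and 17 lowered, while without normoxia replicate 2 10 were raised and 6 lowered. For complexes II to IV, 1 of 26 tested members (27 listed) was raised and 5 lowered (median -0.01), though with total-count scaling 1 was raised and 11 lowered, and without that sample 8 were raised and 5 lowered, whereas for the ATP synthase 1 of 16 tested members was lowered and the others gave no call (median -0.15), though with total-count scaling 0 were raised and 9 lowered and without it 2 were raised and 1 lowered. Single subunits moved far: Ndufv3 of complex I read 78.7, 43.98 and 78.1 CPM in normoxia and 286, 297 and 279 CPM in hypoxia (2.101 ± 0.19, adjusted p = 9.4e-06), and Cox7a1, the muscle form of a complex IV subunit, had 0, 9 and 7 counts in normoxia and 57, 43 and 73 counts in hypoxia. Of messenger RNAs encoded by the mitochondrial genome 6 of 11 tested members (13 listed) were lowered and the others gave no call (median -0.75), and without normoxia replicate 2 8 were lowered and the others gave no call. mt-Nd2 read 3197, 3683 and 3179.5 CPM in normoxia and 1594, 1260.2 and 1590.2 CPM in hypoxia (-1.18 ± 0.15, adjusted p = 0.00012) and mt-Nd4 1131, 769 and 1172 CPM in normoxia and 512, 426 and 525 CPM in hypoxia (-1.07 ± 0.17, adjusted p = 0.00055). Mitochondrial genes near 0 CPM in every sample, such as mt-Atp6, cannot be read from these counts, and the reason for that level was not tested.

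Of serine and one-carbon enzymes 5 of 15 tested members (16 listed) were raised and 4 lowered (median -0.23), though with total-count scaling 4 were raised and 5 lowered, and without normoxia replicate 2 7 were raised and 5 lowered. Mthfd1l, the mitochondrial enzyme that releases formate, read 79.7, 183 and 76.4 CPM in normoxia and 595, 604 and 595 CPM in hypoxia (2.403 ± 0.29, adjusted p = 9.2e-05). Shmt1, the cytosolic serine hydroxymethyltransferase, read 21.6, 93.2 and 20.4 CPM in normoxia and 13.5, 13.7 and 12.7 CPM in hypoxia (-1.76 ± 0.51, adjusted p = 0.019, call lost with the wild-type samples alone or with hypoxia replicate 1, 2 or 3 left out), and its change shrank to -0.66 ± 0.21, adjusted p = 0.02 without normoxia replicate 2. Of the genes that control mTORC1, the kinase complex that couples nutrients to growth, 4 of 24 tested members (25 listed) were raised and 7 lowered (median -0.13), and without that sample 6 were raised and 9 lowered. Its inhibitors Ddit4 (113, 28.8 and 116 CPM in normoxia and 295, 330.2 and 303 CPM in hypoxia, log2 fold change 1.85 ± 0.45, adjusted p = 0.0078) and Sesn2 (1.697 ± 0.12) rose, as did Eif4ebp1, the translation repressor under its control (1.79 ± 0.13). Nprl3, a subunit of the amino-acid sensing GATOR1 complex, fell (34.6, 28.6 and 30.2 CPM in normoxia and 8.70, 8.01 and 7.67 CPM in hypoxia, log2 fold change -1.94 ± 0.12, adjusted p = 7.9e-07), and Sesn3, a relative of Sesn2, read 256, 35.99 and 264 CPM in normoxia and 67.02, 59.6 and 67.02 CPM in hypoxia (-1.52 ± 0.53, adjusted p = 0.043, call lost with the wild-type samples alone or with a replicate block or with any sample but normoxia replicate 2 left out). Normoxia replicate 2 was the lowest of the 6 samples in Sesn3, so the groups overlapped.

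Of cholesterol synthesis genes, 2 of 25 tested members were raised and 9 lowered (median -0.21), though with total-count scaling 1 was raised and 17 lowered, and without normoxia replicate 2 4 were raised and 9 lowered. Insig2, a sterol sensor that retains SREBP in the ER, rose (18.99, 7.57 and 21.1 CPM in normoxia and 48.5, 43.4 and 44.2 CPM in hypoxia, 1.51 ± 0.32, adjusted p = 0.0036). Dhcr7, the last enzyme of the pathway, fell (50.9, 26.1 and 47.9 CPM in normoxia and 12.6, 14.4 and 10.9 CPM in hypoxia, -1.72 ± 0.21, adjusted p = 0.00011), and Sqle, an oxygen-using epoxidase, rose slightly (0.41 ± 0.08, call lost with total-count scaling). For fatty acid synthesis 2 of 14 tested members (15 listed) were raised and 7 lowered (median -0.30), and without normoxia replicate 2 3 were raised and 8 lowered. Acaca, the carboxylase that commits carbon to fatty acids, read 195, 248 and 197 CPM in normoxia and 83.04, 82.9 and 85.2 CPM in hypoxia (-1.35 ± 0.10, adjusted p = 3.3e-06), and Elovl6, an elongase, fell too (-1.53 ± 0.13). The desaturases parted: Scd2 rose (2359, 2048 and 2405 CPM in normoxia and 5002, 4985 and 5021 CPM in hypoxia, 1.14 ± 0.08, adjusted p = 2e-06), while Scd1 fell (-0.59 ± 0.17, call lost with the wild-type samples alone or with any sample but normoxia replicate 2 left out). On lipid droplets, 5 of 13 tested members (20 listed) were raised and 2 lowered (median 0.50), and without normoxia replicate 2 7 were raised and 4 lowered. Hilpda, an inhibitor of lipolysis, read 7.44, 12.7 and 6.70 CPM in normoxia and 126, 136 and 124 CPM in hypoxia (3.85 ± 0.21, adjusted p = 2.7e-07), the coat protein Plin2 rose (1.23 ± 0.12), and Pnpla2, the lipase that Hilpda inhibits, fell (-0.89 ± 0.16).

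Among carbonic anhydrases and acid-base transporters 3 of 12 tested members (16 listed) were raised and 3 lowered (median -0.07), though with total-count scaling 2 were raised and 5 lowered, and without normoxia replicate 2 3 were raised and 3 lowered. Beside the rise of Car9, the bicarbonate transporter Slc4a7 fell (37.2, 31.6 and 40.6 CPM in normoxia and 15.99, 12.9 and 15.6 CPM in hypoxia, -1.296 ± 0.12, adjusted p = 1.3e-05). In iron handling 3 of 17 tested members (19 listed) were raised and 5 lowered (median -0.12), and without that sample 4 were raised and 7 lowered. Hmox1, heme oxygenase 1, read 35.3, 43.7 and 31.7 CPM in normoxia and 384, 402 and 389.6 CPM in hypoxia (3.41 ± 0.14, adjusted p = 3.5e-08), a rise without overlap. Tfrc, the transferrin receptor, read 20.98, 188 and 21.98 CPM in normoxia and 102, 81.2 and 102 CPM in hypoxia: normoxia replicate 2 exceeded every hypoxia sample while its replicates lay far below them, and the log2 fold change was 0.31 ± 0.68, adjusted p = 0.75 with it and 2.15 ± 0.24, adjusted p = 7.5e-06 without it. The ferrireductase Steap3 fell (-1.69 ± 0.20), and Fth1, ferritin heavy chain, fell slightly (-0.599 ± 0.08). In the list of NRF2 antioxidant and glutathione genes 2 of 22 tested members were raised and 3 lowered (median -0.03), though with total-count scaling 2 were raised and 8 lowered, and without normoxia replicate 2 10 were raised and 3 lowered (median 0.32). Gsta4, a glutathione transferase, fell most (-1.25 ± 0.15).

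The ER list had the highest share of raised members of the 58 lists. There 25 of 27 tested members were raised and the others gave no call (median 1.35), and without normoxia replicate 2 26 were raised and the others gave no call (median 1.42). Hspa5, the chaperone BiP, read 636, 759 and 664 CPM in normoxia and 4166, 3536 and 4149.5 CPM in hypoxia (2.52 ± 0.14, adjusted p = 2.9e-07). Hsp90b1, its HSP90 counterpart, read 414, 646 and 429.9 CPM in normoxia and 2946, 2439.7 and 2950.1 CPM in hypoxia (2.48 ± 0.19, adjusted p = 2.8e-06). Ero1l, the oxidase that passes electrons from disulfide formation to oxygen, rose most, from 90.4, 68.6 and 96.7 CPM in normoxia to 3003, 2536 and 2974 CPM in hypoxia (5.06 ± 0.16, adjusted p = 5e-09). In each of the 3 genes the groups were apart and hypoxia replicate 2 was the lowest hypoxia sample. Pdia4, a disulfide isomerase (1.64 ± 0.10), and Dnajb9, a co-chaperone of BiP (2.27 ± 0.24), followed. ATF4 drives amino acid supply during stress, and of its list 15 of 24 tested members (26 listed) were raised and 1 lowered (median 0.75), and without normoxia replicate 2 16 were raised and 1 lowered. Atf4 itself rose (282, 370.0 and 284 CPM in normoxia and 635, 601 and 625 CPM in hypoxia, 0.99 ± 0.11, adjusted p = 4.6e-05). Ddit3, the stress transcription factor CHOP, read 35.6, 12.3 and 31.96 CPM in normoxia and 163, 148 and 154 CPM in hypoxia (2.54 ± 0.30, adjusted p = 7.1e-05), and Trib3, a pseudokinase that restrains it, rose as well (2.73 ± 0.38). Slc1a5, a glutamine transporter, was the member lowered (-0.56 ± 0.10), while Asns, asparagine synthetase, rose little (0.43 ± 0.07, call lost with total-count scaling). Of cytosolic aminoacyl-tRNA synthetases, 8 of 20 tested members were raised and the others gave no call (median 0.16), though with total-count scaling 7 were raised and 3 lowered, and without normoxia replicate 2 12 were raised and the others gave no call. Cars rose most (0.89 ± 0.17), ahead of Gars (0.62 ± 0.13, 0.41 with total-count scaling) and Yars (0.45 ± 0.11, 0.23 with total-count scaling, call lost with the wild-type samples alone).

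Among cytosolic ribosomal proteins 27 of 79 tested members were raised and the others gave no call (median 0.23), though with total-count scaling 2 were raised and 2 lowered, and without normoxia replicate 2 49 were raised and the others gave no call. Fau, whose product is cleaved to a small-subunit protein, changed most (418, 385 and 380.4 CPM in normoxia and 644, 711 and 623 CPM in hypoxia, 0.74 ± 0.10, adjusted p = 0.00017). Many of these genes have processed pseudogenes that can share reads with them, so their single values are uncertain. For mitochondrial ribosomal proteins 1 of 76 tested members (77 listed) was raised and 20 lowered (median -0.32), though with total-count scaling 1 was raised and 52 lowered, and without that sample 11 were raised and 19 lowered (median -0.02). Mrpl38 fell in both fits (-0.95 ± 0.11, adjusted p = 5.7e-05 and -0.84 ± 0.09, adjusted p = 3.6e-06). In ribosome biogenesis 23 of 50 tested members were lowered and the others gave no call (median -0.69), though with total-count scaling 0 were raised and 36 lowered, and without that sample 5 were raised and 19 lowered (median -0.18). Rrp12, a factor of pre-rRNA processing, read 37.02, 169 and 33.7 CPM in normoxia and 15.7, 16.4 and 16.2 CPM in hypoxia, with normoxia replicate 2 several times above its replicates and hypoxia below all of them (-2.31 ± 0.55, adjusted p = 0.0068, and -1.13 ± 0.23, adjusted p = 0.0012 without that sample). Npm1, nucleophosmin, read 765, 1504 and 792 CPM in normoxia and 1349, 1114 and 1302 CPM in hypoxia and was called without normoxia replicate 2 (0.69 ± 0.11, adjusted p = 0.00015) but not with it (0.299 ± 0.22, adjusted p = 0.32). Of proteasome subunits 3 of 36 tested members (39 listed) were lowered and the others gave no call (median -0.57), though with total-count scaling 0 were raised and 21 lowered, and without that sample 3 were raised and 3 lowered (median -0.01). Psmc5, an ATPase of the regulatory particle, read 138, 349.7 and 133 CPM in normoxia and 90.6, 94.04 and 87.2 CPM in hypoxia (-1.19 ± 0.33, adjusted p = 0.015, -0.58 ± 0.15 without normoxia replicate 2, call lost with the wild-type samples alone or with hypoxia replicate 3 left out). Among cytosolic heat-shock chaperones 3 of 21 tested members (22 listed) were raised and 6 lowered (median -0.24), though with total-count scaling 3 were raised and 12 lowered, and without it 7 were raised and 5 lowered. The small chaperone Cryab rose (24.9, 61.4 and 22.7 CPM in normoxia and 120.4, 132 and 115 CPM in hypoxia, 1.75 ± 0.31, adjusted p = 0.0011) and so did Dnajb1 (1.002 ± 0.20), whereas Hsph1, an exchange factor of HSP70, fell (194, 238 and 202 CPM in normoxia and 60.2, 55.7 and 62.8 CPM in hypoxia, -1.83 ± 0.20, adjusted p = 4e-05).

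The medians of the mitotic and DNA replication lists moved with normoxia replicate 2, as the plot of lists by sample shows. Of mitotic genes 32 of 45 tested members were lowered and the others gave no call (median -1.40), and without that sample 6 were raised and 30 lowered (median -0.71). Plk1, a kinase of mitotic entry, read 53.2, 236 and 51.2 CPM in normoxia and 16.4, 19.3 and 16.1 CPM in hypoxia (-2.72 ± 0.50, adjusted p = 0.0016 with and -1.59 ± 0.11, adjusted p = 8.4e-08 without normoxia replicate 2). Ccnb1, the mitotic cyclin, read 22.003, 97.5 and 22.8 CPM in normoxia and 8.62, 8.66 and 7.95 CPM in hypoxia (-2.49 ± 0.48, adjusted p = 0.0021 and -1.41 ± 0.09, adjusted p = 6.1e-08). Cenpf, a kinetochore protein, read 37.98, 101 and 40.1 CPM in normoxia and 11.6, 11.6 and 11.4 CPM in hypoxia (-2.37 ± 0.33, adjusted p = 0.00022 and -1.75 ± 0.12, adjusted p = 7.3e-08). These genes were lower in hypoxia than in every normoxia sample, and normoxia replicate 2 was more than 2-fold above its replicates. Aurka, a spindle kinase, fell (-2.08 ± 0.47, -1.02 ± 0.11 without normoxia replicate 2). Bub1, a checkpoint kinase, went the other way once that sample was left out (15.02, 61.5 and 16.9 CPM in normoxia and 27.7, 24.04 and 29.6 CPM in hypoxia, 0.77 ± 0.11, adjusted p = 6.6e-05 without it, -0.199 ± 0.42, adjusted p = 0.74 with it). In a bulk sample, fewer cells in mitosis and less of each RNA per cell cannot be told apart.

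**Figure D3:**
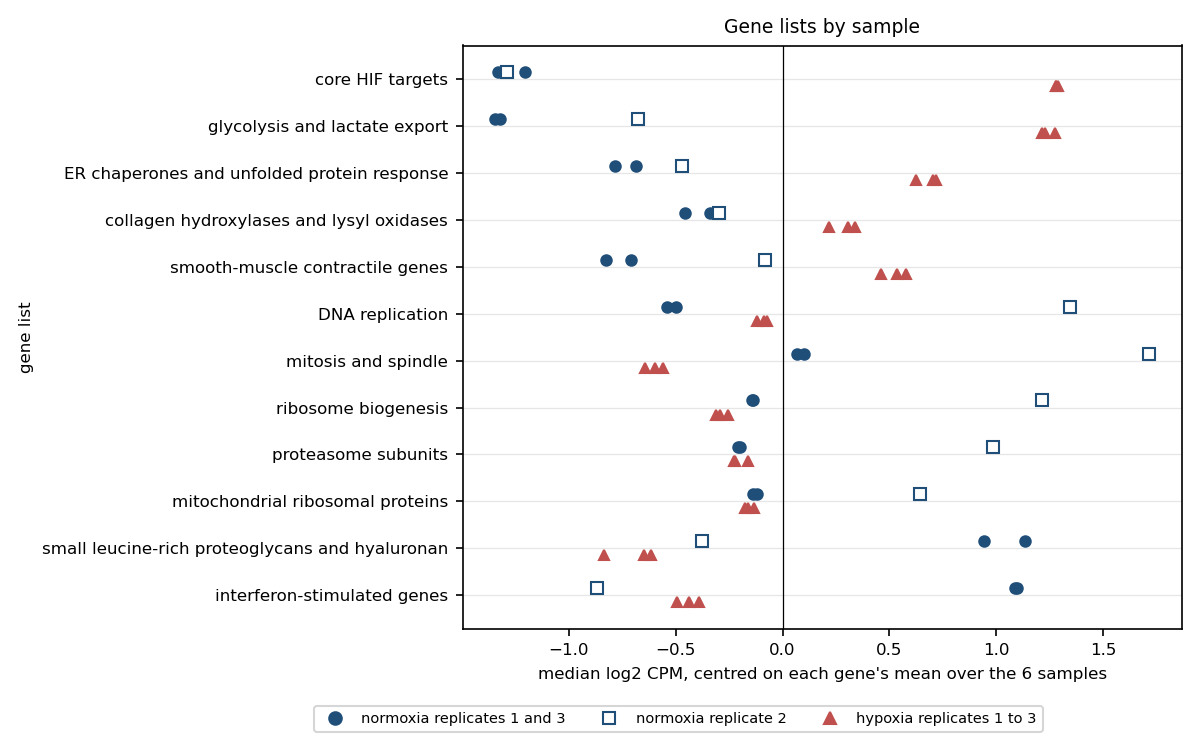
Median over tested members of log2 CPM after the mean of each gene over the 6 samples was subtracted, for 12 gene lists. Circles are normoxia replicates 1 and 3, open squares normoxia replicate 2 and triangles the 3 hypoxia samples. In DNA replication, mitosis, ribosome biogenesis and the proteasome the open square lies above all other samples (1.34, 1.72, 1.21 and 0.98), in interferon-stimulated genes below them (-0.87), and in core HIF targets beside its replicates (-1.29 against -1.33 and -1.21).

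Few DNA replication genes were called with all samples in the model. In that list 2 of 46 tested members were lowered and the others gave no call (median -0.48), though with total-count scaling 0 were raised and 6 lowered, but without normoxia replicate 2 24 were raised and 2 lowered, and the median turned to 0.44. Cdc6, which loads the replicative helicase, read 8.95, 66.6 and 9.30 CPM in normoxia and 29.2, 27.9 and 29.5 CPM in hypoxia: normoxia replicate 2 was the highest of the 6 samples and its replicates were the lowest. Its log2 fold change was 0.03 ± 0.62, adjusted p = 0.98 with that sample and 1.67 ± 0.21, adjusted p = 2.3e-05 without it. Orc1, of the origin recognition complex, behaved alike (4.45, 27.9 and 4.82 CPM in normoxia and 18.8, 17.5 and 17.7 CPM in hypoxia, 0.54 ± 0.56, adjusted p = 0.48 and 1.96 ± 0.19, adjusted p = 2.4e-06). Pold2, a DNA polymerase delta subunit, was called lower in both fits (-0.801 ± 0.28, adjusted p = 0.042, call lost with the wild-type samples alone or with hypoxia replicate 1, 2 or 3 left out, and -0.26 ± 0.10, adjusted p = 0.04 without that sample). Of homologous recombination and Fanconi anemia genes 1 of 31 tested members was raised and 6 lowered (median -0.27), and without that sample 10 were raised and 4 lowered (median 0.26). Those 10 and 4 were 32.3% and 12.9% of the list, against 27.1% and 26.9% of all genes without that sample. Fanca fell in both fits (13.9, 50.7 and 12.9 CPM in normoxia and 5.09, 6.68 and 6.04 CPM in hypoxia, -2.12 ± 0.48, adjusted p = 0.0052 and -1.17 ± 0.23, adjusted p = 0.00083), and Fancc rose in both (0.75 ± 0.13, adjusted p = 0.0011 and 0.89 ± 0.11, adjusted p = 2.1e-05). Of 67 replication-dependent histone genes 22 were measured, and 7 of 22 tested members (67 listed) were raised and the others gave no call (median 0.43), and without that sample 12 were raised and 2 lowered (median 1.15). The summed level of the 22 histone genes was low and overlapped between the groups, at 64.3 to 74.3 CPM in normoxia and 72.0 to 79.5 CPM in hypoxia. Their near-identical copies make single values uncertain.

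For G1 cyclins and CDK inhibitors 5 of 22 tested members (25 listed) were raised and 4 lowered (median 0.19), though with total-count scaling 4 were raised and 5 lowered, and without normoxia replicate 2 11 were raised and 4 lowered. With all samples that is 22.7% raised and 18.2% lowered, against 18.2% and 18.3% of all genes. Cdkn1a, the CDK inhibitor p21, read 34.8, 52.2 and 33.9 CPM in normoxia and 455, 490.1 and 459 CPM in hypoxia (3.54 ± 0.18, adjusted p = 1.8e-07). Cdkn1b, the inhibitor p27, read 109, 86.1 and 113 CPM in normoxia and 205, 196 and 205 CPM in hypoxia (0.98 ± 0.15, adjusted p = 0.00041). Cdkn2c, the inhibitor p18, fell (85.5, 115 and 92.6 CPM in normoxia and 33.9, 37.4 and 33.6 CPM in hypoxia, -1.48 ± 0.12, adjusted p = 3.3e-06). Of p53 targets 8 of 26 tested members (28 listed) were raised and 4 lowered (median 0.28), though with total-count scaling 5 were raised and 7 lowered, and without that sample 13 were raised and 6 lowered. With all samples that is 30.8% raised and 15.4% lowered. Mdm2, the ubiquitin ligase of p53, rose (101, 148 and 96.7 CPM in normoxia and 304, 261 and 303 CPM in hypoxia, 1.33 ± 0.16, adjusted p = 6.7e-05), whereas Sesn1 (-1.22 ± 0.29) and Tigar (-1.39 ± 0.32, -0.81 ± 0.16 without normoxia replicate 2) fell. In the MYC and MAX network 4 of 11 tested members (13 listed) were raised and 1 lowered (median 0.41), though with total-count scaling 2 were raised and 2 lowered, and without it 7 were raised and 2 lowered. Mxi1, an antagonist of MYC, read 63.9, 41.4 and 61.1 CPM in normoxia and 316, 298 and 317 CPM in hypoxia (2.48 ± 0.18, adjusted p = 2.1e-06), and Myc rose by less (0.66 ± 0.10). In the BCL2 family 4 of 16 tested members (20 listed) were raised and 4 lowered (median -0.02), though with total-count scaling 3 were raised and 7 lowered, and without it 8 were raised and 5 lowered. Bnip3l, the mitophagy receptor NIX, read 64.98, 41.8 and 66.3 CPM in normoxia and 414, 344 and 397 CPM in hypoxia (2.74 ± 0.16, adjusted p = 5.1e-07). Bmf, a pro-apoptotic member, read 31.3, 2.67 and 31.5 CPM in normoxia and 4.28, 4.01 and 4.33 CPM in hypoxia: normoxia replicate 2 lay at the hypoxia level and the other normoxia samples far above (-2.38 ± 0.75, adjusted p = 0.028, call lost with the wild-type samples alone or with any sample but normoxia replicate 2 left out, and -2.89 ± 0.40, adjusted p = 5.4e-05 without that sample). Autophagy genes as a list stayed near the all-gene median: 8 of 42 tested members (43 listed) were raised and 3 lowered (median 0.02), though with total-count scaling 7 were raised and 15 lowered, and without that sample 11 were raised and 9 lowered. Sqstm1, the cargo receptor p62, rose (387, 352 and 372 CPM in normoxia and 659.5, 718 and 674 CPM in hypoxia, 0.89 ± 0.08, adjusted p = 1.1e-05), while Ulk1, the kinase that starts autophagy (-0.67 ± 0.14), and Tfeb, a transcription factor of lysosomal genes (-1.12 ± 0.25), fell.

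Among collagen chains 6 of 29 tested members (44 listed) were raised and 5 lowered (median 0.31), though with total-count scaling 4 were raised and 7 lowered, and without normoxia replicate 2 6 were raised and 12 lowered (median 0.09). With all samples 20.7% were raised and 17.2% lowered, close to the 18.2% and 18.3% of all genes. Col3a1 read 2245, 336 and 2179 CPM in normoxia and 348, 348 and 341 CPM in hypoxia: normoxia replicate 2 lay at the hypoxia level, so the groups overlapped, and the log2 fold change was -2.67 ± 0.06, adjusted p = 7.1e-12 without it and, with it, -2.198 ± 0.50, adjusted p = 0.0054, call lost with the wild-type samples alone. Col12a1, a fibril-associated collagen, rose (7.28, 5.99 and 8.07 CPM in normoxia and 53.004, 49.9 and 55.3 CPM in hypoxia, 2.89 ± 0.25, adjusted p = 6.7e-06), and so did Col5a1 (0.804 ± 0.16). Col1a2, a chain of the main fibrillar collagen, read 4467, 1866 and 4277 CPM in normoxia and 3016, 3279 and 2997 CPM in hypoxia and was called lowered without that sample (-0.49 ± 0.07, adjusted p = 6e-05) but not with it (-0.19 ± 0.25, adjusted p = 0.57). Of the enzymes that hydroxylate and cross-link collagen 13 of 19 tested members (20 listed) were raised and 4 lowered (median 0.54), with total-count scaling 10 were raised and 5 lowered, and without normoxia replicate 2 14 were raised and 4 lowered. P4ha1, a prolyl hydroxylase subunit, read 117, 129 and 119 CPM in normoxia and 851, 779 and 836 CPM in hypoxia (2.76 ± 0.08, adjusted p = 5e-09). P4ha2, its paralog, read 68.7, 82.5 and 63.2 CPM in normoxia and 988, 1037 and 982 CPM in hypoxia (3.81 ± 0.11, adjusted p = 2.5e-09). Plod2, the telopeptide lysyl hydroxylase (3.204 ± 0.18), and Lox, lysyl oxidase (1162, 757 and 1234 CPM in normoxia and 4695, 3941 and 4582 CPM in hypoxia, 2.07 ± 0.18, adjusted p = 8.6e-06), rose too, whereas Loxl1 fell (789, 373 and 754 CPM in normoxia and 280.3, 362 and 303 CPM in hypoxia, -1.02 ± 0.23, adjusted p = 0.0055, call lost with the wild-type samples alone).

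Proteases and inhibitors of the matrix gave 5 raised and 8 lowered genes of 29 tested members (52 listed) (median -0.04), though with total-count scaling 2 were raised and 9 lowered, and without normoxia replicate 2 5 were raised and 12 lowered. Mmp2, a gelatinase, read 936, 419.8 and 896 CPM in normoxia and 354, 373 and 344 CPM in hypoxia (-1.07 ± 0.26, adjusted p = 0.0079). Timp3, an inhibitor, read 129.5, 67.4 and 126 CPM in normoxia and 56.7, 54.01 and 59.1 CPM in hypoxia (-0.93 ± 0.23, adjusted p = 0.0091). The largest fitted rise of that list belonged to Adamts13, which had 0, 0 and 0 counts in normoxia and 3, 6 and 12 counts in hypoxia and is too scarce to read a fold from. Among laminins, fibronectin and matricellular proteins 13 of 30 tested members (36 listed) were raised and 10 lowered (median -0.14), though with total-count scaling 11 were raised and 12 lowered, and without that sample 13 were raised and 14 lowered. Spp1, osteopontin, read 677, 257 and 698 CPM in normoxia and 57.1, 50.8 and 57.4 CPM in hypoxia (-3.305 ± 0.37, adjusted p = 5.1e-05), whereas Sparc rose (0.77 ± 0.09). Ctgf, a matricellular protein, read 26.1, 215 and 25.6 CPM in normoxia and 677, 679.6 and 683 CPM in hypoxia, where normoxia replicate 2 lay between its replicates and hypoxia (2.94 ± 0.80, adjusted p = 0.014, call lost with DESeq2 or with the wild-type samples alone, and 4.72 ± 0.51, adjusted p = 6.3e-06 without it). Small leucine-rich proteoglycans and hyaluronan genes had the lowest median, as 1 of 18 tested members (22 listed) was raised and 9 lowered (median -1.58) and without normoxia replicate 2 2 were raised and 12 lowered (median -1.76). Dcn, decorin, read 57.02, 10.8 and 54.8 CPM in normoxia and 6.13, 5.51 and 5.91 CPM in hypoxia (-2.802 ± 0.49, adjusted p = 0.0011). Prelp, a relative of decorin, read 54.2, 2.32 and 48.8 CPM in normoxia and 2.26, 2.47 and 2.27 CPM in hypoxia, with normoxia replicate 2 at the level of hypoxia (-3.91 ± 0.82, adjusted p = 0.0033). Has2, a hyaluronan synthase, fell with normoxia replicates closer together (19.5, 13.7 and 22.1 CPM in normoxia and 6.59, 5.96 and 6.29 CPM in hypoxia, -1.55 ± 0.16, adjusted p = 2.5e-05), and Hyal1, a hyaluronidase, was the member that rose (6.23, 3.46 and 6.61 CPM in normoxia and 36.96, 38.9 and 38.4 CPM in hypoxia, 2.81 ± 0.21, adjusted p = 2.6e-06). Of integrins 5 of 21 tested members (25 listed) were raised and 2 lowered (median 0.13), though with total-count scaling 2 were raised and 4 lowered, and without that sample 8 were raised and 6 lowered. Itgav rose (0.85 ± 0.12) and Itga8 fell (6.35, 6.20 and 6.49 CPM in normoxia and 1.25, 1.82 and 1.45 CPM in hypoxia, -2.08 ± 0.17, adjusted p = 5e-06).

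Of contractile genes of the smooth-muscle type 17 of 25 tested members (26 listed) were raised and 1 lowered (median 0.95), and without normoxia replicate 2 20 were raised and 1 lowered (median 1.38). Acta2, smooth-muscle actin, read 180.3, 1014 and 161 CPM in normoxia and 2734, 3112 and 2692 CPM in hypoxia (2.66 ± 0.61, adjusted p = 0.0058, call lost with DESeq2, and 4.07 ± 0.26, adjusted p = 5.1e-08 without that sample). Myl9, a regulatory light chain, read 7.87, 22.1 and 6.63 CPM in normoxia and 52.5, 57.3 and 53.5 CPM in hypoxia (2.16 ± 0.39, adjusted p = 0.0014). Actg2, enteric smooth-muscle actin, read 1.30, 8.31 and 1.46 CPM in normoxia and 33.5, 37.4 and 31.8 CPM in hypoxia (3.22 ± 0.58, adjusted p = 0.0013). Normoxia replicate 2 was the highest normoxia sample in each of these, and still below hypoxia. Synpo2 (0.479, 0.79 and 0.27 CPM in normoxia and 9.37, 8.05 and 9.17 CPM in hypoxia, 4.12 ± 0.33, adjusted p = 4.5e-06) and Cnn1, calponin (1.99 ± 0.15), rose as well, whereas Myh10, a non-muscle myosin, fell (-0.68 ± 0.10). Of targets of the mechanosensitive coactivators YAP and TAZ 9 of 26 tested members (28 listed) were raised and 3 lowered (median 0.08), though with total-count scaling 8 were raised and 7 lowered, and without that sample 14 were raised and 7 lowered. Cyr61, a matricellular protein, read 36.999, 282 and 32.98 CPM in normoxia and 737, 809.9 and 749.9 CPM in hypoxia (2.704 ± 0.74, adjusted p = 0.015, call lost with DESeq2 or with the wild-type samples alone, and 4.46 ± 0.40, adjusted p = 1.2e-06 without it). Amotl2 read 202, 240.3 and 187 CPM in normoxia and 791, 850.4 and 814 CPM in hypoxia (1.96 ± 0.11, adjusted p = 2.7e-07).

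For immediate early transcription factors 10 of 21 tested members (22 listed) were raised and 3 lowered (median 0.24), and without normoxia replicate 2 11 were raised and 6 lowered. Ier3, a survival gene, read 40.1, 53.2 and 38.8 CPM in normoxia and 796, 847 and 781 CPM in hypoxia (4.197 ± 0.14, adjusted p = 6.7e-09), and Fos (2.15, 0.627 and 2.14 CPM in normoxia and 10.4, 11.6 and 10.8 CPM in hypoxia, 2.73 ± 0.33, adjusted p = 9.3e-05) and Jun (1.32 ± 0.15), the subunits of AP-1, rose. Egr1, induced by serum, read 123, 41.1 and 107 CPM in normoxia and 47.9, 49.6 and 48.03 CPM in hypoxia (-0.901 ± 0.29, adjusted p = 0.032, call lost with the wild-type samples alone or with any sample but normoxia replicate 2 left out), and its normoxia replicate 2 lay below every hypoxia sample, so the groups overlapped. The orphan receptor Nr4a2 read 44.7, 8.34 and 42.7 CPM in normoxia and 7.42, 6.20 and 7.26 CPM in hypoxia (-2.196 ± 0.68, adjusted p = 0.026, call lost with any sample but normoxia replicate 2 left out), with normoxia replicate 2 close to hypoxia. In the TGF-beta list 9 of 24 tested members (29 listed) were raised and 4 lowered (median 0.53), though with total-count scaling 8 were raised and 7 lowered, and without it 14 were raised and 6 lowered. The inhibitory Smad7 read 13.2, 41.7 and 13.4 CPM in normoxia and 109, 106 and 108 CPM in hypoxia (2.25 ± 0.41, adjusted p = 0.0014). The ligand Tgfb2 fell (2.60, 1.02 and 2.72 CPM in normoxia and 0.441, 0.651 and 0.637 CPM in hypoxia, -1.88 ± 0.42, adjusted p = 0.0048), as did Tgfb1 by less (-0.54 ± 0.15, call lost with the wild-type samples alone or with hypoxia replicate 1 or 3 left out).

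Both receptors for platelet-derived growth factor, a mitogen of fibroblasts, fell. In the PDGF, FGF, EGF and HGF system 2 of 23 tested members (30 listed) were raised and 8 lowered (median -0.25), and without normoxia replicate 2 5 were raised and 10 lowered. Pdgfra read 927, 168 and 908 CPM in normoxia and 141, 125 and 135 CPM in hypoxia, with normoxia replicate 2 near hypoxia (-2.32 ± 0.49, adjusted p = 0.0036, and -2.77 ± 0.18, adjusted p = 5.3e-08 without it). Pdgfrb read 130.4, 59.4 and 128 CPM in normoxia and 26.97, 30.5 and 25.8 CPM in hypoxia (-1.94 ± 0.26, adjusted p = 0.00019). The ligand Hgf fell (34.9, 9.66 and 36.9 CPM in normoxia and 3.22, 3.01 and 3.64 CPM in hypoxia, -3.04 ± 0.42, adjusted p = 0.00023), whereas Hbegf, a ligand of the EGF receptor, rose (19.6, 66.6 and 19.2 CPM in normoxia and 484, 458 and 483 CPM in hypoxia, 3.76 ± 0.53, adjusted p = 0.00024). Among insulin-like growth factor genes 3 of 12 tested members (16 listed) were raised and 4 lowered (median 0.19), and without that sample 4 were raised and 5 lowered (median -0.04). The receptor Igf1r rose (0.87 ± 0.08), while Igf2r, the clearance receptor, fell (332, 151 and 329 CPM in normoxia and 90.5, 88.2 and 92.8 CPM in hypoxia, -1.58 ± 0.24, adjusted p = 0.00039). Of WNT ligands, receptors and antagonists 3 of 24 tested members (48 listed) were raised and 8 lowered (median -0.28), and without it 5 were raised and 11 lowered. Fzd7, a WNT receptor, read 21.8, 26.4 and 21.8 CPM in normoxia and 188, 187 and 187 CPM in hypoxia (3.004 ± 0.10, adjusted p = 6.7e-09), and the effectors Lef1 (-1.86 ± 0.36) and Tcf7 (2.19, 0.232 and 1.85 CPM in normoxia and 0.0519, 0.103 and 0.153 CPM in hypoxia, -3.76 ± 0.77, adjusted p = 0.0031) fell from low levels. In the Notch list 3 of 13 tested members (22 listed) were raised and 3 lowered (median -0.13), though with total-count scaling 3 were raised and 4 lowered, and without it 3 were raised and 5 lowered. Notch4 rose (1.92, 1.81 and 2.12 CPM in normoxia and 9.94, 11.8 and 9.53 CPM in hypoxia, 2.42 ± 0.20, adjusted p = 4.8e-06), whereas Notch1 (-1.31 ± 0.20) and the ligand Jag1 (-0.996 ± 0.16) fell.

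As a list, interferon-stimulated genes were lower in hypoxia than in normoxia replicates 1 and 3. With all samples 16 of 33 tested members (44 listed) were lowered and the others gave no call (median -1.36), and without normoxia replicate 2 29 were lowered and the others gave no call (median -1.70). Normoxia replicate 2 lay below every other sample as a list. Ifit1, which binds foreign RNA, read 3.13, 0.464 and 2.99 CPM in normoxia and 0.779, 0.582 and 0.713 CPM in hypoxia (-1.66 ± 0.58, adjusted p = 0.043, call lost with the wild-type samples alone or with any sample but normoxia replicate 2 left out, and -2.12 ± 0.28, adjusted p = 3.2e-05 without that sample). Isg15, a ubiquitin-like protein, passed the test without it (-1.32 ± 0.16, adjusted p = 2e-05) but not with it (-0.92 ± 0.40, adjusted p = 0.095). In the MHC class I list 5 of 15 tested members (17 listed) were lowered and the others gave no call (median -0.29), and without it 1 was raised and 9 lowered (median -0.68). Nlrc5, the transcriptional activator of the pathway, read 5.27, 1.76 and 5.20 CPM in normoxia and 0.96, 1.23 and 0.815 CPM in hypoxia (-2.03 ± 0.39, adjusted p = 0.002). Of chemokines 2 of 14 tested members (23 listed) were raised and 6 lowered (median -0.63), and without it 3 were raised and 8 lowered. Ccl2, which attracts monocytes, read 37.4, 52.4 and 40.8 CPM in normoxia and 3.92, 3.63 and 4.61 CPM in hypoxia (-3.42 ± 0.41, adjusted p = 7.8e-05). Ccl11, eotaxin, had 112, 17 and 155 counts in normoxia and 0, 2 and 0 counts in hypoxia. Cxcl5 read 4.999, 7.66 and 4.72 CPM in normoxia and 11.2, 7.53 and 10.1 CPM in hypoxia (0.73 ± 0.23, call lost with the wild-type samples alone or with normoxia replicate 1 or 3 or hypoxia replicate 1 or 3 left out), and the groups overlapped. In the interleukin list 1 of 18 tested members (21 listed) was raised and 5 lowered (median -0.18), though with total-count scaling 1 was raised and 9 lowered, and without it 3 were raised and 11 lowered. Il1rap, the shared co-receptor of the IL-1 family, read 41.5, 30.7 and 42.7 CPM in normoxia and 8.93, 7.84 and 9.66 CPM in hypoxia (-2.12 ± 0.15, adjusted p = 1.4e-06). Lif, a cytokine of the IL-6 family, rose (9.11, 11.1 and 8.69 CPM in normoxia and 23.7, 25.7 and 23.5 CPM in hypoxia, 1.34 ± 0.21, adjusted p = 0.00049).

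Of JmjC histone demethylases 8 of 21 tested members (23 listed) were raised and 2 lowered (median 0.20), and without normoxia replicate 2 9 were raised and 2 lowered. Kdm3a, which demethylates H3K9, read 30.9, 37.7 and 32.8 CPM in normoxia and 234, 218 and 229 CPM in hypoxia (2.75 ± 0.10, adjusted p = 1e-08). Kdm4b read 67.9, 51.02 and 61.7 CPM in normoxia and 241, 268 and 237 CPM in hypoxia (2.04 ± 0.12, adjusted p = 4.5e-07). Jmjd6 read 56.1, 129 and 50.7 CPM in normoxia and 398, 420.0 and 399 CPM in hypoxia (2.37 ± 0.31, adjusted p = 0.00015). Among DNA methylation and TET enzymes 3 of 13 tested members were raised and 1 lowered (median -0.01), though with total-count scaling 1 was raised and 3 lowered, and without it 7 were raised and 2 lowered. Dnmt1, the maintenance methyltransferase, read 231, 616 and 215 CPM in normoxia and 159, 170.0 and 165 CPM in hypoxia (-1.103 ± 0.33, adjusted p = 0.023, -0.43 ± 0.12 without normoxia replicate 2, call lost with the wild-type samples alone or with hypoxia replicate 1, 2 or 3 left out). Tet1, which oxidises methylcytosine, read 5.11, 1.37 and 5.14 CPM in normoxia and 9.47, 9.01 and 9.81 CPM in hypoxia (1.28 ± 0.37, adjusted p = 0.019, call lost with total-count scaling or with the wild-type samples alone or with hypoxia replicate 3 left out). In the circadian clock 5 of 20 tested members (22 listed) were raised and 4 lowered (median -0.01), though with total-count scaling 5 were raised and 7 lowered, and without it 6 were raised and 7 lowered. The repressors Bhlhe40 (80.9, 47.3 and 79.6 CPM in normoxia and 449.9, 469 and 445 CPM in hypoxia, 2.71 ± 0.18, adjusted p = 1e-06) and Bhlhe41 (2.83, 1.28 and 2.75 CPM in normoxia and 22.6, 23.3 and 23.95 CPM in hypoxia, 3.34 ± 0.26, adjusted p = 3.3e-06) rose, and the output factor Hlf fell (82.9, 9.08 and 85.3 CPM in normoxia and 8.31, 7.77 and 9.38 CPM in hypoxia, -2.798 ± 0.67, adjusted p = 0.0071), with normoxia replicate 2 at the hypoxia level. For SR proteins, CLK kinases and cold-shock proteins 3 of 26 tested members were raised and 4 lowered (median -0.13), though with total-count scaling 2 were raised and 9 lowered, and without it 9 were raised and 5 lowered. The splicing kinases Clk1 (0.64 ± 0.15, call lost with total-count scaling) and Clk4 (0.73 ± 0.13) rose, and Srrm1, a splicing coactivator, fell (-0.75 ± 0.14).

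Over all genes with at least 10 CPM on average, the largest rises were in Aire, Gpr35, Edn2, Selenbp1, Cavin4, Ankrd37, Car9, Lims2, AU021092 and Acta1. Aire, a transcription factor known from the thymus, had 2, 2 and 0 counts in normoxia and 1219, 1047 and 1281 counts in hypoxia, and Gpr35, an orphan receptor, had 4, 2 and 2 counts in normoxia and 1951, 1444 and 2024 counts in hypoxia. Edn2, endothelin 2, had 2, 15 and 2 counts in normoxia and 1551, 1318 and 1558 counts in hypoxia. These went from almost no reads to 1047 or more in every hypoxia sample, so no fitted fold is given. In the table's annotation Aire shares 1664 bases with Dnmt3l (log2 fold change 2.12 ± 0.40), Ankrd37 shares 6405 bases with Lrp2bp (4.28 ± 0.22), and Gpr17 (5.55 ± 0.60) overlaps Lims2 over 6640 bases. If the counting ignored strand, which the sources used here do not state, reads of overlapping partners cannot be told apart. Car9 shares 1782 bases with the antisense gene Gm12454 (1.14 ± 0.74, adjusted p = 0.25), Spp1 shares 1252 bases with Gm42793 (-3.59 ± 0.87), and Ankrd37 also shares 57 bases with Ufsp2 (0.55 ± 0.12). These 6 partners were chosen after their values were seen. Cavin4, a caveolar coat protein of muscle, read 1.89, 2.97 and 1.68 CPM in normoxia and 108, 101 and 107 CPM in hypoxia (5.596 ± 0.40, adjusted p = 1.8e-06). Lims2, an adaptor of integrin adhesions, read 1.51, 0.557 and 1.35 CPM in normoxia and 43.01, 54.4 and 44.4 CPM in hypoxia (5.37 ± 0.28, adjusted p = 2.3e-07). Acta1, skeletal-muscle actin, read 0.205, 2.07 and 0.193 CPM in normoxia and 29.9, 31.6 and 25.9 CPM in hypoxia, with normoxia replicate 2 above its replicates (5.17 ± 0.78, adjusted p = 0.00041).

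The largest falls were in Pif1, Osr2, Vdr, Slpi, Cemip, Ccl2, Enpp1, Spp1, Dock4 and Ralgds. Pif1, a DNA helicase, read 12.7, 33.1 and 12.2 CPM in normoxia and 0.986, 1.44 and 1.20 CPM in hypoxia (-4.01 ± 0.38, adjusted p = 1.6e-05). Vdr, the vitamin D receptor, read 98.7, 9.40 and 91.95 CPM in normoxia and 6.33, 5.72 and 5.81 CPM in hypoxia (-3.48 ± 0.79, adjusted p = 0.0053). Cemip, a hyaluronan-degrading protein, read 255, 17.4 and 241 CPM in normoxia and 14.7, 16.4 and 15.5 CPM in hypoxia (-3.46 ± 0.82, adjusted p = 0.0067). Hypoxia was below every normoxia sample in each of the 10 genes, a condition of their choice that 21.8% of all tested genes met, and the condition of the rises, hypoxia above every normoxia sample, was met by 23.2%. Slpi, a secreted protease inhibitor, read 83.6, 17.8 and 85.4 CPM in normoxia and 5.24, 6.23 and 5.35 CPM in hypoxia (-3.47 ± 0.47, adjusted p = 0.0002). Osr2, a zinc-finger factor of mesenchyme, read 37.3, 7.57 and 32.2 CPM in normoxia and 1.97, 2.43 and 1.94 CPM in hypoxia (-3.61 ± 0.48, adjusted p = 0.00016). Enpp1, which makes pyrophosphate, read 88.5, 34.8 and 88.6 CPM in normoxia and 7.09, 6.44 and 7.29 CPM in hypoxia (-3.35 ± 0.42, adjusted p = 0.00012).

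Gene families were also grouped by the letters of their symbol, which gave 152 families of at least 10 tested genes. Of all genes 18.2% were raised and 18.3% lowered with all 6 samples, and 27.1% and 26.9% without normoxia replicate 2. By share raised, the highest were 7 of 10 Anxa genes (annexins), 8 of 13 Klf genes (Krüppel-like factors), 5 of 10 Unc genes (Unc homologs), 8 of 17 Kdm genes (lysine demethylases), and, at an equal share, 12 of 26 Sec genes (vesicle coat and translocon), 6 of 13 Stx genes (syntaxins) and 6 of 13 Snhg genes (snoRNA host genes). With total-count scaling the numbers raised and lowered were 5 and 0 (Anxa), 7 and 1 (Klf), 4 and 3 (Unc) and 5 and 0 (Kdm). For Sec they were 9 and 7, for Stx 1 and 4 and for Snhg 3 and 2. Without normoxia replicate 2 the leading families were 10 of 10 Anxa genes (7 with it), 7 of 10 Anapc genes (1 with it, and 0 raised and 1 lowered with total-count scaling of all samples) (anaphase-promoting complex), 29 of 47 Rpl genes (15 with it, and 2 raised and 2 lowered with total-count scaling of all samples) (large ribosomal subunit), 8 of 13 Klf genes (8 with it) and 8 of 13 Snhg genes (6 with it). By share lowered, the highest were 8 of 13 St genes (a stem that holds sialyltransferases and unrelated genes), 5 of 10 Utp genes (pre-rRNA processing), 5 of 10 Zcchc genes (zinc-knuckle proteins), 7 of 16 Nr genes (nuclear receptors), and, at an equal share, 5 of 12 Ppm genes (protein phosphatases) and 5 of 12 Exoc genes (exocyst). Without normoxia replicate 2 they were 19 of 19 Pcdhb genes (6 with it) (the beta protocadherin cluster, near-identical neighbours whose reads can be shared), 7 of 10 Irf genes (3 with it) (interferon regulatory factors), 9 of 13 St genes (8 with it), 8 of 12 Ppm genes (5 with it) and 6 of 10 Abca genes (3 with it) (lipid transporters).

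Among genes of at least 10 CPM, normoxia replicate 2 was farthest below its replicates in Txnip, C3, Prelp, Lbp and Cemip, and farthest above them in Fhl1, Id1, Csf1r, Tfrc and Acta1. Txnip, which restrains glucose uptake, read 283, 10.3 and 271 CPM in normoxia and 169.8, 170.5 and 168 CPM in hypoxia, and complement C3 read 51.1, 2.14 and 47.2 CPM in normoxia and 22.7, 25.1 and 22.9 CPM in hypoxia. Fhl1, a LIM-domain protein, read 0.365, 9.43 and 0.25 CPM in normoxia and 21.8, 22.02 and 22.2 CPM in hypoxia, and Id1, an inhibitor of differentiation, read 3.90, 48.6 and 4.16 CPM in normoxia and 29.3, 29.7 and 31.2 CPM in hypoxia. The call of Fhl1 was lost with DESeq2, and with any sample but normoxia replicate 2 left out.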

How the data were processed

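Wild-type NIH3T3 cells were profiled in 3 normoxia and 3 hypoxia samples, beside 6 samples of the dNVEGF line. According to the study's methods and the submitters' processing notes, total RNA was made into libraries with a TruSeq kit, reads were checked with FastQC 0.11.5, trimmed with Trim Galore and cutadapt 1.10 and mapped to mouse GRCm38.p6 with TopHat2 2.1.0 and Bowtie2 2.2.6, and the authors' deposited values are raw read counts per gene from HTSeq-count 0.6.1. Whether the counting used strand is not given in the sources used here. The authors tested with DESeq2 1.18.1.

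Starting from those counts, genes were filtered with filterByExpr, scaled by TMM and tested with edgeR 4.0.16 (R 4.3.3, limma 3.58.1), as a quasi-likelihood F test in a model with 1 mean for each of the 4 groups, and p-values were adjusted by Benjamini-Hochberg over all tested genes. The SE was derived from the log2 fold change and its F value. DESeq2 1.42.0, other scalings and filters, the wild-type samples alone, a replicate block and leaving out each sample were the alternatives. Each library held 30519052 to 43056690 counts. Replicates of a group differed by more than counting error, with a chi-square per gene of 2.94 to 18.2 between hypoxia samples, 6.30 between normoxia replicates 1 and 3 and 353 and 370.3 for normoxia replicate 2, so none was treated as a duplicate. The scripts were tested on simulated data.

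The comparison and the 58 gene lists were chosen with earlier results of these data known, so no list was tested as a set and each is described by its counts and median. Named genes were, for each list, its first 4 members and its largest called rise and fall; over all genes of at least 10 CPM, the 10 largest rises and falls at 2-fold or more with no overlap between groups, without Gm and Rik symbols; and the 5 genes farthest above and below in normoxia replicate 2. Of these the text describes a part, and some are not reported here. Families were read from the letters of the symbol before its first digit. Promoter windows came from RefSeq.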

Additional observations from a re-analysis of the deposited data

Results flagged for a closer look

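For 21 of the 196 genes named above, the response to hypoxia in wild-type cells differed from that in the dNVEGF line by edgeR's interaction test at an adjusted p below 0.05, against 495 of all 14724 tested genes (3.36%). Many of the 196 were chosen for a large wild-type change or for their level in normoxia replicate 2, and both enter this test. Their share should therefore not be compared with that of all genes. Values are the response of the dNVEGF line minus that of the wild type, on the log2 scale. The 3 wild-type normoxia samples enter each value, and without normoxia replicate 2 all 21 kept their sign and their call, though 6729 of 15145 tested genes (44.4%) then passed, and the dNVEGF cells are CRISPR-edited clones, so clone and deletion cannot be told apart. With a replicate block 484 genes passed, and of the 21 the calls of Dcn, Edn2, Plod2 and Sqle were lost.

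Among HIF and angiogenic genes the rise was larger in the dNVEGF line for Vegfa (1.57), Angptl4 (1.75), P4ha2 (0.66), Plod2 (1.12) and Hmox1 (0.93). Vegfa, the gene that carries the deletion, rose by 2.01 in wild-type and 3.59 in dNVEGF cells. Rab20 (0.87) fell in the wild type by 0.68 against a change of 0.19 in the dNVEGF line. The rise was smaller in the dNVEGF line for Edn2 (-3.29), whose wild-type normoxia counts were near 0 so that the value depends on the prior count, for Synpo2 (-2.14) and for Lrp2bp (-1.88), which overlaps Ankrd37.

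Stress genes of the ER and of ATF4 rose more in the dNVEGF line, namely Ddit3 (1.83), Sesn2 (1.27), Ero1l (1.16), Yars (0.73), Pdia4 (0.67) and Asns (0.66). The contractile gene Cnn1 (2.08) and the collagen gene Col5a1 (1.14) did so too. Col3a1 (3.62) fell by 2.198 in the wild type and changed by 1.43 in the dNVEGF line, and Dcn (2.88) fell by 2.802 against 0.078. In lipid synthesis Elovl6 (-1.42) fell further in the dNVEGF line, and Sqle (-0.47) changed there by -0.059.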

How the results depend on the processing

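The main test made 5372 calls, and leaving out 1 wild-type sample at a time gave 4054 to 8175 calls, with 2205 to 4107 raised and 1849 to 4068 lowered genes. The highest value was always that without normoxia replicate 2. A fit of the 6 wild-type samples alone gave 3366 calls, 1563 of them lowered. With total-count scaling 4818 genes were lowered, 1652 of them by 2-fold or more, and without normoxia replicate 2 as well there were 9419 calls with 6977 lowered, and 3500 calls with 2372 lowered at 2-fold. A minimum of 10 counts in every sample left 875 genes raised by 2-fold or more. Of the 196 genes named, the direction and the call of each were unchanged with RLE size factors and with no count filter, DESeq2 lost 5 calls (Acta2, Csf1r, Ctgf, Cyr61 and Fhl1), total-count scaling lost 4 (Asns, Clk1, Sqle and Tet1) and the wild-type samples alone lost 21 of 193. Total-count scaling with normoxia replicate 2 left out as well moved by over 1.5 times these log2 fold changes, which neither choice moved so far alone: Cdkn1b 0.56, Clk4 0.38, Col5a1 0.302, Ddit4 1.13, Egr1 -1.55, Fau 0.42, Igf1r 0.52, Insig2 0.87, Loxl1 -1.596, Mmp2 -1.66, Pdp1 -1.36, Rab20 -1.08, Scd1 -1.09, Sesn1 -1.84, Sesn3 -2.31, Sparc 0.37, Sqstm1 0.55, Tfeb -1.697, Tgfb1 -0.98, Timp3 -1.48 and Ulk1 -1.13. Leaving out a sample other than normoxia replicate 2 lost between 9 and 14 calls. Bmf, Egr1, Fhl1, Ifit1, Nr4a2, Scd1 and Sesn3 lost theirs whichever of these samples was left out, and Angptl4, Cxcl5, Dnmt1, Pold2, Psmc5, Pygb, Shmt1, Tet1 and Tgfb1 with some of them.

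Direction turned for 7 genes, none of them called in the main test, as follows in log2 units. Leaving out 1 sample at a time gave Bub1 -0.54 to 0.77, Cdc6 -0.399 to 1.67, Col1a2 -0.49 to 0.0090, Ndufa4l2 -0.88 to 0.058, Slc16a3 -0.022 to 0.501, Tfrc -0.15 to 2.15 and Txnip -0.705 to 0.27, where the ends were the values without normoxia replicates 1 and 2 for all but Slc16a3, whose ends were those without hypoxia replicates 1 and 2. Between these ends lay Cdc6 at -0.39, Tfrc at -0.14 and Txnip at 0.204 without normoxia replicate 3. With total-count scaling Cdc6 gave -0.091, and without normoxia replicate 2 as well Bub1 gave 0.46. The cause was not tested.

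List medians were followed as the difference from the median of all genes, and of the 58 lists those that moved by more than the spread between replicates were these. That spread includes normoxia replicate 2, so lists in which it stood far from its replicates do not appear although their medians changed without it. Examples, as medians with nothing subtracted, were DNA replication (-0.48 to 0.44), mitosis (-1.40 to -0.71), ribosome biogenesis (-0.69 to -0.18) and the proteasome (-0.57 to -0.01). All other values here are differences from the median of all genes. With no count filter the values were core HIF targets 2.48, cholesterol synthesis -0.21, ATF4 and amino acid supply 0.65, cytosolic ribosomal proteins 0.23, replication-dependent histones 0.058, p53 targets 0.24, collagen hydroxylases and lysyl oxidases 0.48 and TGF-beta ligands, receptors and targets 0.54. With at least 10 counts in every sample they were ATF4 and amino acid supply 0.99 and TGF-beta ligands, receptors and targets 0.501. With total counts and without normoxia replicate 2 they were glycolysis and lactate export 2.82, serine and one-carbon enzymes 0.31, cholesterol synthesis -0.202, fatty acid synthesis and desaturation -0.39, ATF4 and amino acid supply 0.99, cytosolic ribosomal proteins 0.24, replication-dependent histones 1.15, MYC and MAX network 0.38, collagen hydroxylases and lysyl oxidases 0.78, YAP and TAZ targets 0.299, immediate early transcription factors 0.71, TGF-beta ligands, receptors and targets 0.49, insulin-like growth factor system -0.10, chemokines -1.09 and DNA methylation and TET enzymes 0.28. Leaving out 1 sample at a time gave ranges of core HIF targets 2.38 to 2.59, angiogenic ligands and receptors 0.73 to 1.29, glycolysis and lactate export 2.19 to 2.83, serine and one-carbon enzymes -0.35 to 0.31, cholesterol synthesis -0.22 to -0.13, fatty acid synthesis and desaturation -0.39 to -0.18, carbonic anhydrases and acid-base transporters 0.0030 to 0.071, ATF4 and amino acid supply 0.803 to 0.99, cytosolic ribosomal proteins 0.24 to 0.32, replication-dependent histones 0.20 to 1.15, MYC and MAX network 0.38 to 0.51, collagen hydroxylases and lysyl oxidases 0.57 to 0.78, YAP and TAZ targets 0.14 to 0.299, immediate early transcription factors 0.22 to 0.72, TGF-beta ligands, receptors and targets 0.49 to 0.63, insulin-like growth factor system -0.10 to 0.28, chemokines -1.09 to -0.45 and DNA methylation and TET enzymes 0.039 to 0.28. DESeq2, RLE size factors, total counts with all samples and the wild-type samples alone moved none of the 58 by that measure. A change of scaling shifts all genes almost alike, so a difference from the median of all genes can hardly show it. Calls did change with total counts: raised cytosolic ribosomal proteins went from 27 to 2. Lowered mitochondrial ribosomal proteins went from 20 to 52 and lowered proteasome subunits from 3 to 21.

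Samples of the 2 wild-type groups share replicate numbers, but their deviations from the group means were not alike, since those of equal number correlated at -0.018 to 0.049 (mean 0.013, against -0.006 for unequal numbers). Normoxia samples of equal number in the wild type and the dNVEGF line correlated at 0.378, 0.498 and 0.355, but the unequal numbers 1 and 3 did so at 0.347 and 0.358, and replicate 2 stood apart in both lines. Hypoxia samples of equal number in the lines correlated at 0.021, 0.11 and 0.088. With a replicate block 5679 genes were called, 2895 raised and 2784 lowered, Sesn3 lost its call, Txnip gave 0.11 and the list pyruvate dehydrogenase and its kinases -0.29. On simulated counts the main test found 97% of 2-fold and 100% of 4-fold changes with 8 false calls among 14724 genes, in a simulation in which no sample stood apart. Of the 54446 genes in the file, those outside the 14724 tested had too few counts at this depth to be tested.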
